A study of Bos taurus with 6 samples.

Results

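EPHA2, EPHA4 and EPHB3 are the Eph receptors that could be followed in primary bovine myoblasts treated with resveratrol (RSV). The genes looked for were EPHA2, EPHA3, EPHA4, EPHA7, EPHB2, EPHB3, EPHB4 and the ephrins EFNA1, EFNB1 and EFNB2, and 3 of these 10 genes could be paired with an identifier among the 26332 mRNAs of the deposited table. The table gives identifiers without symbols, and the names came from the study's list of differentially expressed mRNAs. It gave a name to 1863 mRNAs, and a gene that it does not name may still have differed between the groups. The 3 receptors were thus selected on a measured difference between the RSV and control groups, and the size of that difference is given as a description without a test. The other 7 genes, among them every ephrin, were not analysed here.

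The cells were primary myoblasts from fetal beef longissimus dorsi muscle, the precursors that fuse into muscle fibers. The RSV group held 3 cultures kept in differentiation medium with 20 μM RSV, a plant polyphenol, for 4 days. The control group held 3 cultures that received only the RSV solvent dimethyl sulfoxide (DMSO). The labels give a day for the RSV group only, so the day of the control cultures is not known from them. Each group came from 3 independent experiments by the study's methods, and no animal is tied to a culture in the labels, so the errors below measure the spread between cultures. Primary cells of fetal muscle can hold other cells besides myoblasts.

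Eph receptors form the largest family of receptor tyrosine kinases, and their ligands, the ephrins, are themselves fixed to the surface of neighboring cells. Contact between a receptor-bearing and an ephrin-bearing cell signals into both cells and changes actin organization, adhesion and repulsion. A-type receptors mostly bind the lipid-anchored ephrin-A ligands and B-type receptors the transmembrane ephrin-B ligands, while EPHA4 binds ligands of both types. In muscle the system is known for guiding myoblasts and motor axons in the developing limb. EPHA2 is widely expressed in epithelial and migrating cells, EPHA4 is known for axon guidance, and EPHB3 for the sorting of cells at tissue boundaries.

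The deposited table holds 1 mean per group, in normalized reads, which are read counts divided by a size factor that scales for sequencing depth. Whole reads of single libraries were recovered from the digits of these means for 20157 of the 20459 mRNAs that had any reads (98.5%). The libraries carry no replicate number and are called a, b and c in the order of their size factors. Recovered reads summed to between 11018557 and 13183867 per library. RSV library c stood apart from the other RSV libraries. Its squared Pearson correlation with them, on log10(normalized reads + 1) across 20157 mRNAs, was 0.970 and 0.964, against 0.979 between RSV libraries a and b and 0.978 for each pair of DMSO libraries. The log2FC of each receptor, the spread within the RSV group and the read ratios are therefore also given without this library. The log2FC without it is also given for several other genes for which it stood out.

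EPHA2 (ENSBTAG00000000815) had the largest difference of the 3 receptors. It had 3725, 3536 and 3770 normalized reads in RSV libraries a, b and c, and 999, 1168 and 1130 in DMSO libraries a, b and c. Every RSV library was above every DMSO library, and the lowest RSV library was 3.03 times the highest DMSO library. The group means were 3677 ± 124 (SD, n = 3) in RSV and 1099 ± 88.7 (SD, n = 3) in DMSO, a ratio of 3.34. The log2 fold change (log2FC) from limma voom, a linear model fitted across 14725 mRNAs, was 1.74 with a standard error of 0.070, and 1.73 with a standard error of 0.061 without RSV library c. Of these mRNAs, 193 had a larger log2FC than EPHA2, and 329 (2.23%) had a larger absolute log2FC.

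EPHA4 (ENSBTAG00000010030) was also higher in the RSV group. It had 864, 786 and 1177 normalized reads in RSV libraries a, b and c, and 494, 450 and 538 in DMSO libraries a, b and c. The groups did not overlap, and RSV library c was 1.43 times the mean of the other RSV libraries. The group means were 942.5 ± 207 (SD, n = 3) in RSV and 494 ± 44.0 (SD, n = 3) in DMSO, a ratio of 1.91. The log2FC from the same fit was 0.91 with a standard error of 0.16. Without RSV library c, the log2FC of EPHA4 was 0.74 with a standard error of 0.078.

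EPHB3 (ENSBTAG00000005313) differed in the opposite direction. It had 2178, 2115 and 1763 normalized reads in RSV libraries a, b and c, and 2807, 3074 and 2979 in DMSO libraries a, b and c. The groups did not overlap, and RSV library c had the lowest level of all the libraries. The group means were 2018 ± 224 (SD, n = 3) in RSV and 2953 ± 135 (SD, n = 3) in DMSO, so the RSV mean was 68.3% of the DMSO mean. The log2FC of EPHB3 was −0.55 with a standard error of 0.085, and −0.46 with a standard error of 0.053 without RSV library c.

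**Figure D1:**
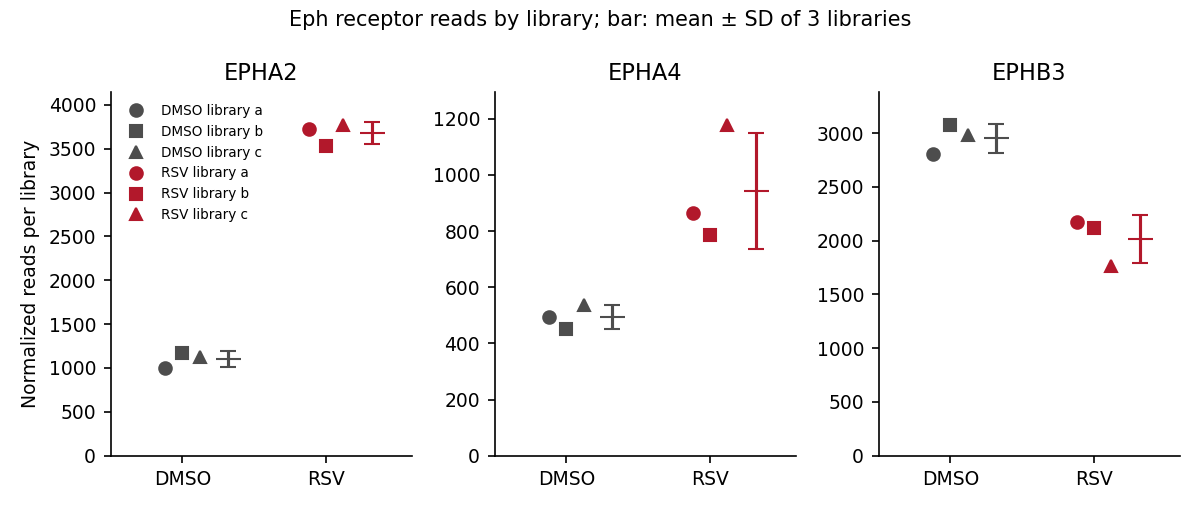
Normalized reads (vertical axis, starting at 0) of EPHA2, EPHA4 and EPHB3 in each DMSO (gray) and RSV (red) library, with the library letter given by the symbol and the mean ± SD of 3 libraries by the bar. EPHA2 and EPHA4 were higher in every RSV library, EPHB3 was lower, and RSV library c was the highest for EPHA4 (1177) and the lowest for EPHB3 (1763).

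All 3 receptors were called at an adjusted p under 0.05 (limma voom with Benjamini-Hochberg adjustment), 2 of them higher and 1 lower in RSV. The fit called 34.0% of all mRNAs tested, 16.8% higher and 17.2% lower in RSV. RSV and DMSO libraries did not overlap for 27.1% of all mRNAs tested with higher values in RSV and for 26.3% with lower values. Since the receptors were named through a list of mRNAs that differed, their calls follow from the choice: all 1750 named mRNAs in the fit were called. With an absolute log2FC of at least 1 as well, 1 of the 3 receptors (EPHA2) was called, against 6.83% of all mRNAs tested. Of the 5004 mRNAs called, 1005 met that limit. Of the 3, EPHB3 was nearest to the middle of the distribution, with a larger absolute log2FC in 3201 mRNAs (21.7%), and EPHA4 lay between, with 1460 (9.92%).

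**Figure D2:**
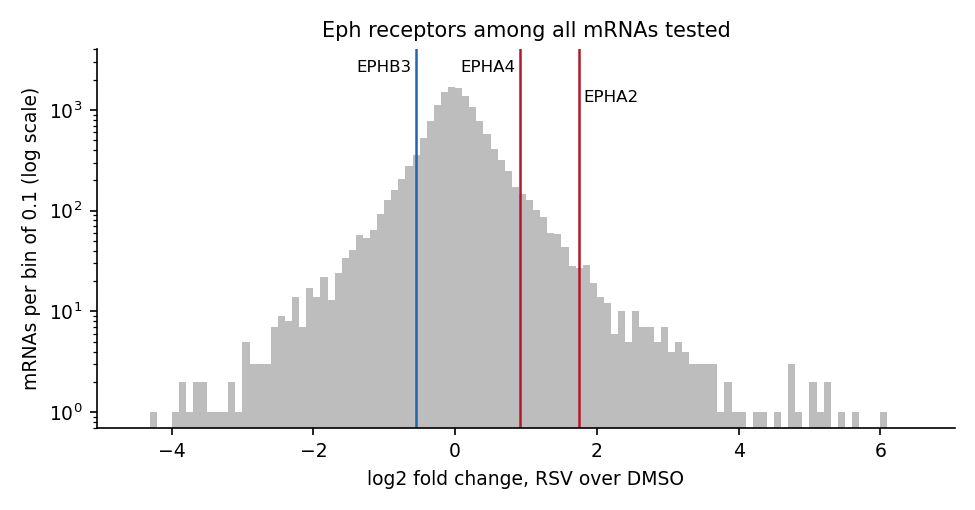
Number of mRNAs (vertical axis, log scale) by log2 fold change of RSV over DMSO (horizontal axis, bins of 0.1) for all 14725 mRNAs tested, with vertical lines at EPHB3 (−0.55), EPHA4 (0.91) and EPHA2 (1.74). EPHA2 lies in the right tail, beyond which 193 mRNAs were found, while EPHB3 lies on the left shoulder.

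The receptors also differed in how evenly the libraries of a group behaved. Across all RSV libraries EPHA2 had the lowest coefficient of variation of the 3, 3.38%, where the counting of reads alone gives 1.59%. That order rested on RSV library c, since libraries a and b alone gave 3.69% for EPHA2 and 2.05% for EPHB3. Its RSV spread on the log2 scale (SD 0.049) lay at percentile 24.7 among the 853 mRNAs whose RSV mean was within 1.5 times its own, and at percentile 54.7 among 881 mRNAs without library c (SD 0.053). Without RSV library b the coefficient of variation of EPHA2 was 0.840%. In the DMSO group EPHA2 was among the less even mRNAs of its level. Its coefficient of variation was 8.07% there, against 3.12% from counting, and its log2 SD of 0.12 lay at percentile 93.4 among 2821 mRNAs of like mean. The SD values rest on 3 libraries per group and are imprecise.

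EPHA4 had the highest coefficient of variation among RSV libraries, 22.0% against 3.15% from counting alone, and 6.66% without library c, still the highest of the 3. Its log2 SD of 0.30 in RSV lay at percentile 94.4 among 3134 mRNAs of like mean, whose median SD was 0.096. Without library c its log2 SD was 0.096, at percentile 76.9 among 3217 mRNAs with a median of 0.053. For EPHB3 the coefficient of variation was 11.1% in RSV and 4.59% in DMSO, against 2.15% and 1.90% from counting. Without RSV library c the RSV value of EPHB3 was 2.05%. RSV library c lay away from the others for both of these receptors. The ratio of library c to the mean of RSV libraries a and b was 1.43 for EPHA4, 0.821 for EPHB3 and 1.04 for EPHA2. Across 14720 mRNAs this ratio had a median of 0.997, and the 3 receptors lay at percentiles 91.9, 19.6 and 58.4. Library c thus lay further from DMSO than the other RSV libraries for EPHA4 and EPHB3, and by little for EPHA2.

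Reads of different genes depend on transcript length, and no transcript length was used here, so levels were not compared between the receptors. The ratio of the reads of 2 receptors within a library holds the same length factor in every library and no size factor, so its change between groups can be read. EPHA2 reads divided by EPHB3 reads gave 1.71, 1.67 and 2.14 in RSV libraries a, b and c. In the DMSO libraries the same ratio was 0.356, 0.380 and 0.380. The means of 1.84 ± 0.259 (SD, n = 3) and 0.372 ± 0.0137 (SD, n = 3) differed 4.95-fold, more than the spread within either group, and 4.55-fold without RSV library c. The ratio of EPHA4 to EPHB3 reads was 2.86-fold higher in RSV on average, and RSV library c (0.668) stood above libraries a and b (0.397 and 0.372). Without library c the ratio was 2.29-fold higher. The ratio of EPHA2 to EPHA4 reads was 4.31, 4.50 and 3.20 in RSV libraries and 2.02, 2.59 and 2.10 in DMSO libraries. These groups did not overlap either, although RSV library c lay nearest to the DMSO libraries. The means differed 1.79-fold, and 1.97-fold without library c.

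As a share of the summed reads of the 3 receptors, EPHA2 went from 24.2 ± 0.842% (SD, n = 3) in DMSO to 55.4 ± 0.694% in RSV. EPHB3 made up 65.0 ± 0.760% in DMSO and 30.4 ± 3.62% in RSV. EPHA4 held 10.9 ± 1.12% in DMSO and 14.2 ± 2.93% in RSV, and RSV libraries a and b (12.8% and 12.2%) lay just above the DMSO range of 9.59% to 11.6%, with library c at 17.5%. The summed normalized reads of the 3 receptors were 6638 ± 176 (SD, n = 3) in RSV and 4547 ± 215 in DMSO, a ratio of 1.46. The shares, the size of their change between groups and the ratio of the summed reads all depend on transcript length. The direction of the change does not for EPHA2 and EPHB3, since EPHA2 rose and EPHB3 fell relative to each other receptor. For EPHA4, which rose relative to EPHB3 and fell relative to EPHA2, the direction in transcripts cannot be told without the lengths.

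**Figure D3:**
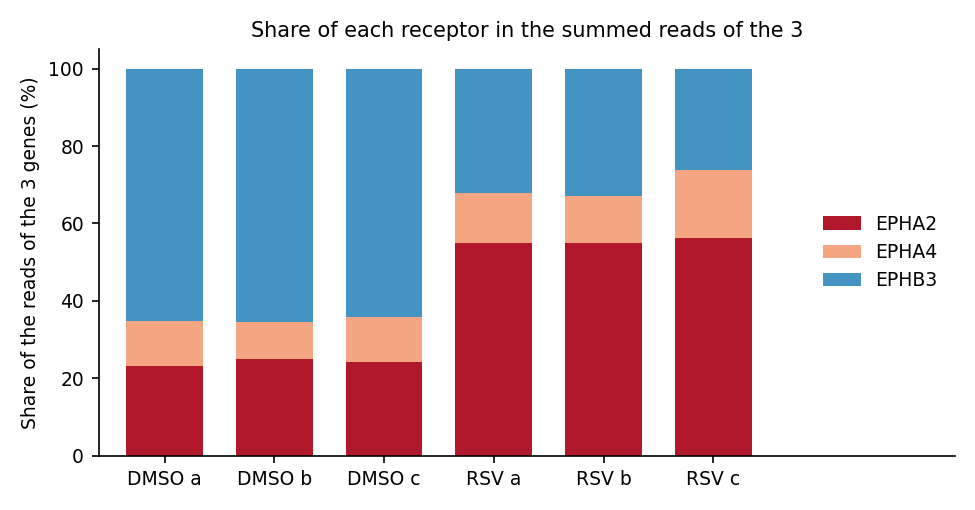
Percentage of the summed reads of EPHA2, EPHA4 and EPHB3 (vertical axis) that each receptor held in the 3 DMSO and 3 RSV libraries (horizontal axis). EPHA2 held 23.2% to 24.9% in DMSO libraries and 54.9% to 56.2% in RSV libraries, while the EPHB3 share was 64.1% to 65.5% and 26.3% to 32.9%.

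The named genes with the most similar profile were looked for by the Pearson correlation of log2(normalized reads + 1) over the 6 libraries, among 1554 other named mRNAs whose mean reached 100 normalized reads. All of these are mRNAs that differed between the groups, so high values follow from the shared group difference and no p is given. The r values include RSV library c and are not given without it, so its part in the ranking was not tested. For EPHA2 the 5 nearest were ARRB1, DYRK3, XPC, BAX and TYRO3, with r between 0.998 and 1.000 and log2FC between 0.78 and 1.13. For EPHA4 they were TAZ, SNTB1, TRAPPC2L, NRP1 and KMT5C, with r between 0.995 and 0.999 and log2FC between 0.43 and 0.70. For EPHB3 they were TNS3, PMEPA1, SLC6A9, ZNF469 and ETV6, with r between 0.997 and 0.999 and log2FC between −0.96 and −0.53. Among the receptors r was 0.926 between EPHA2 and EPHA4, −0.930 between EPHA2 and EPHB3, and −0.980 between EPHA4 and EPHB3. By symbol, RefSeq (ARS-UCD2.0) places EPHA2 and EPHA4 on the same chromosome and EPHB3 on another.

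Genes known to act with or downstream of Eph receptors were taken from 3 lists, and only those that the study's list names could be read. Their calls follow from that naming, as for the receptors, so direction and size are what the values show. Of the 1750 named mRNAs in the fit, 791 were higher and 959 lower in RSV, the split against which the counts below are to be read. The median log2FC was −0.39 over these mRNAs and 0.006 over all mRNAs tested.

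Of 39 adaptors, kinases and exchange factors, 8 had a name and 7 had recovered reads, 2 of them higher and 5 lower in RSV, with a median log2FC of −0.80. KALRN, an exchange factor that acts downstream of EphB receptors, ranged from 83.1 to 104 normalized reads across RSV libraries, against 232 to 267 across DMSO libraries. Its log2FC was −1.41 with a standard error of 0.13. TIAM1, a Rac exchange factor that binds Eph receptors and ephrins, ranged from 151 to 219 normalized reads across RSV libraries, against 317 to 335 across DMSO libraries, and its log2FC was −0.80 (standard error 0.14). Both exchange factors were lower in every RSV library than in any DMSO library. Without RSV library c, which held the lowest TIAM1 value, the log2FC of TIAM1 was −0.64 (standard error 0.0998). The chimaerins are Rac-inactivating proteins, and CHN1 is known for relaying EPHA4 signals in axons. CHN1 and CHN2 differed in opposite directions, with log2FC values of −1.42 (standard error 0.20) and 0.79 (standard error 0.15). RSV library c held the highest CHN2 value, and without it the log2FC of CHN2 was 0.67 (standard error 0.13). CHN1 was lowest in RSV library c, with 145 normalized reads against 247 and 288 in RSV libraries a and b and 560 to 623 in the DMSO libraries, and without library c its log2FC was −1.13 (standard error 0.094). GRIP1, a scaffold of ephrin-B ligands, had a log2FC of −1.54 (standard error 0.31) at 11.4 to 63.6 normalized reads, and −1.15 (standard error 0.25) without RSV library c, which held the lowest value. CRKL, an adaptor of tyrosine kinases, had a log2FC of 0.36 and TNS3, a focal adhesion protein, one of −0.54. Without RSV library c these were 0.32 (standard error 0.060) and −0.45 (standard error 0.056). INPPL1, a lipid phosphatase that binds EPHA2, was named, but its reads could not be recovered.

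Of 19 genes for the shedding and uptake of Eph and ephrin complexes, 4 were named and recovered, 1 higher and 3 lower in RSV. ADAM10, the protease that cleaves ephrins bound to Eph receptors, had 2218, 2151 and 2491 normalized reads in RSV libraries a, b and c and 1746, 1777 and 1781 in DMSO libraries. Its log2FC was 0.37 (standard error 0.066), and 0.30 (standard error 0.051) without RSV library c, which held the highest value. The 3 endocytosis genes that could be read were lower. AP2A1 and AP2B1, adaptor subunits of clathrin coats, had log2FC values of −0.48 and −0.41, and −0.42 and −0.38 without RSV library c. DNM1, a dynamin that pinches off vesicles, had 1266, 1357 and 840 normalized reads in RSV libraries a, b and c, against 2773 to 2929 across DMSO libraries. Its log2FC was −1.34 (standard error 0.15), and −1.13 (standard error 0.055) without RSV library c, which held the lowest value.

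Genes of other guidance families lay on both sides as well. Of 49 semaphorin, plexin, neuropilin, slit, robo, netrin and related genes, 14 were named and 13 had recovered reads, 5 higher and 8 lower in RSV, close to the split over all named mRNAs. The semaphorin co-receptors NRP1 and NRP2 differed in opposite directions, as the Eph receptors did. NRP1 ranged from 3273 to 4279 normalized reads across RSV libraries, against 2152 to 2313 across DMSO libraries. NRP2 ranged from 1470 to 1520 across RSV libraries, against 2468 to 2537 across DMSO libraries. The log2FC was 0.70 (standard error 0.098) for NRP1 and −0.74 (standard error 0.049) for NRP2. Without RSV library c, which held the highest NRP1 value, the log2FC of NRP1 was 0.59 (standard error 0.052). The slit receptors ROBO1 and ROBO2 were both lower, with log2FC values of −0.51 and −0.84. Among the secreted semaphorins SEMA3D had the lowest log2FC, −1.56 (standard error 0.22), and SEMA3B the highest, 0.62 (standard error 0.086). RSV library c held the lowest SEMA3D value (509 normalized reads), and without it the log2FC of SEMA3D was −1.24 (standard error 0.068). For SEMA3E, also lowest in library c, the log2FC without it was −1.13 (standard error 0.18). SEMA3A, SEMA3E and SEMA3F, which are secreted too, were lower, with log2FC values of −0.75, −1.51 and −0.38. SEMA3A was also lowest in library c, and its log2FC without that library was −0.61 (standard error 0.099). The membrane-bound semaphorins SEMA5B and SEMA7A were higher (0.66 and 0.82), as was the semaphorin receptor PLXNA2 (0.49). RGMA, a repulsive guidance molecule, was lower (−0.88). RSV library c held the highest SEMA7A and the lowest RGMA value. Without it the log2FC was 0.68 (standard error 0.12) for SEMA7A and −0.70 (standard error 0.11) for RGMA. PLXNB2 was named without recovered reads.

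**Figure D4:**
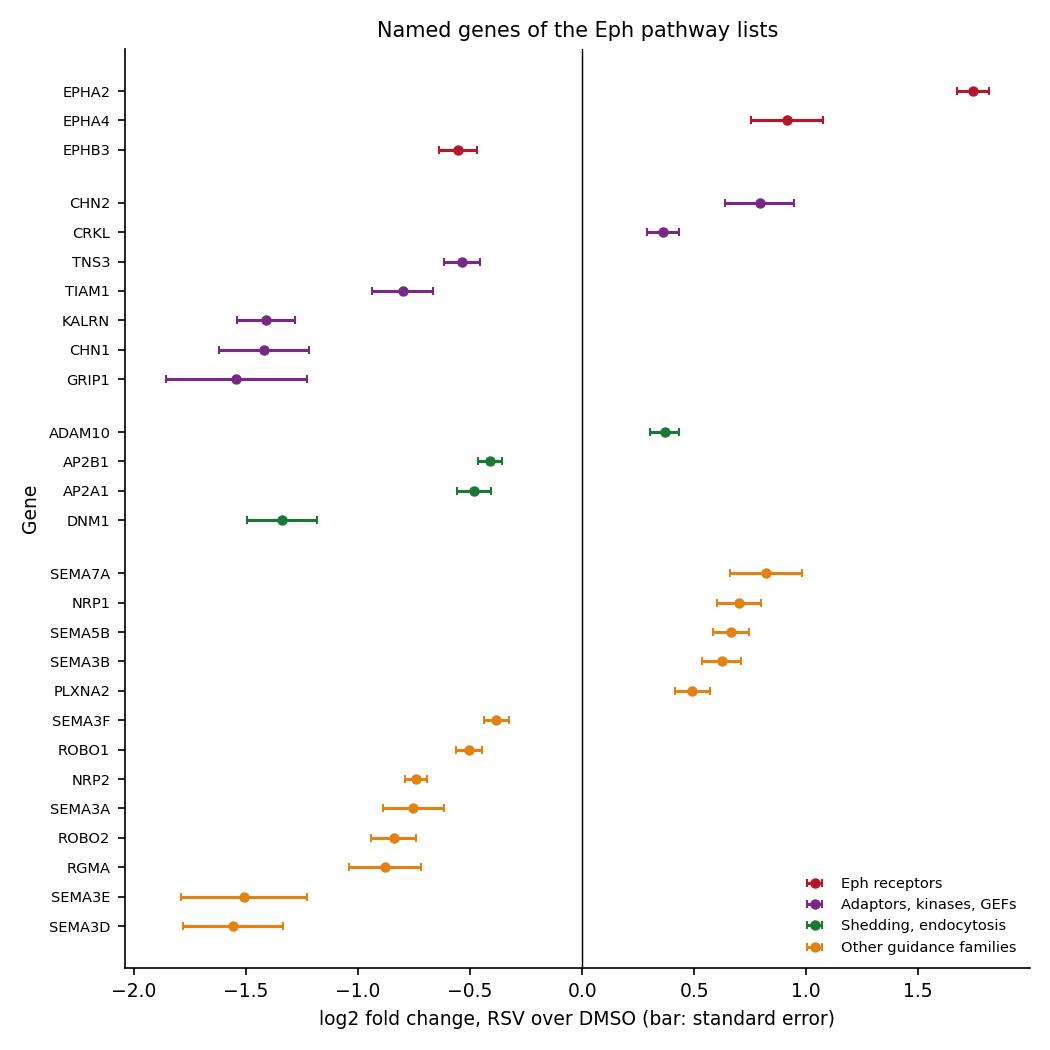
log2 fold change of RSV over DMSO (horizontal axis, bars give the standard error from limma voom) for the named genes with recovered reads in the Eph receptor list (red), adaptors, kinases and exchange factors (GEFs, purple), shedding and endocytosis (green) and other guidance families (orange). Every list held genes on both sides of 0, from SEMA3D at −1.56 to EPHA2 at 1.74.

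Cell type markers could be read only where the study's list of differing mRNAs names them, so each one given here differed by that choice and does not stand for its whole list. Of 16 myoblast markers 3 had a name and 2 of these had recovered reads, MYMK, which drives myoblast fusion, and TNNT1, a troponin of slow fibers. Their sum ranged from 5568 to 5612 normalized reads across RSV libraries, against 3321 to 3752 across DMSO libraries. In RSV libraries a, b and c MYMK had 1998, 1733 and 1630 normalized reads, against 1084 to 1114 across DMSO libraries. TNNT1 had 3587, 3835 and 3982, against 2237 to 2654. MYH3, an embryonic myosin, was named without recovered reads. Of 8 fibroblast markers 6 had a name, and PDGFRA and POSTN had recovered reads. Their summed normalized reads ranged from 10611 to 11372 across RSV libraries, against 18087 to 18458 across DMSO libraries. In RSV libraries a, b and c PDGFRA had 6734, 6697 and 7277, against 9068 to 9381 across DMSO libraries. POSTN had 4245, 4676 and 3334, against 8706 to 9150. COL3A1, DCN, LUM and THY1 were named without recovered reads. The endothelial transcription factor ERG, the only one of 7 endothelial markers with a name, had 90.1, 78.4 and 50.3 normalized reads in RSV libraries a, b and c, against 218 to 231 across DMSO libraries. Of 6 markers of mural cells 2 had a name, ACTA2 without recovered reads and CSPG4. CSPG4 had 670, 735 and 417 normalized reads in RSV libraries a, b and c, against 1595 to 1655 across DMSO libraries. ERG, CSPG4 and POSTN were lowest in RSV library c, as EPHB3 was. Without it their log2FC went from −1.66 to −1.42 (ERG), −1.46 to −1.22 (CSPG4) and −1.15 to −1.01 (POSTN). Among RSV libraries, MYMK was lowest and TNNT1 and PDGFRA were highest in library c. Without it the log2FC went from 0.70 to 0.77 (MYMK), 0.60 to 0.57 (TNNT1) and −0.42 to −0.46 (PDGFRA). The markers without a name were not analysed here. None of the recovered markers was at 0 in any library, and no marker of adipocytes or blood cells had a name. The part of these cells in the receptor values was not tested. In such bulk samples, fewer cells of a type and less RNA per cell cannot be told apart.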

How the data were processed

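RNA of 3 RSV and 3 DMSO cultures was sequenced for mRNA and miRNA, and only the mRNA part was used here. The authors divided read counts by DESeq size factors and deposited the mean normalized read count of each group; the aligner, counter and annotation of the mRNA reads are not given in the sources used here. The decimal points of most deposited means of 1 or more were lost. The authors' own log2 fold change, P-value and adjusted P-value columns were deposited too and were not used.

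Each mean was solved as a sum of 3 whole reads over size factors, which were estimated from the means themselves. A mean was taken as recovered when a single combination was found at the lowest decimal place that gave any, with fewer than 0.01 combinations to be found by chance. Above a mean of 4000 each library was kept between 0.5 and 1.5 times the mean, and means above 10000 were not solved. Median-of-ratios size factors of the recovered reads lay within 0.285% of those solved for. The 302 mRNAs not recovered were left out, and 1 further gene list is not reported here.

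The voom method of limma 3.58.1 in R 4.3.3 was fitted to mRNAs whose mean reached 10 normalized reads, with library sizes proportional to the solved size factors, and the Benjamini-Hochberg adjustment covered 14725 mRNAs. Other steps used Python 3.11.15, numpy 2.4.6, numba 0.67.0 and pandas 2.3.3. Recovery and fit were tested on simulated data. Names came from the study's sheets (1863 mRNAs), and RefSeq paired 0 identifiers. The receptors, gene lists and tests were chosen with earlier results of these data known. Genes named in the text are the receptors, their 5 most correlated named genes and the named members of each list (up to 6 by mean level, with further ones chosen after their values were seen). With 3 libraries per group the SD and SE are imprecise. Alternatives were total-read scaling, quantile normalization, limma with a trend on log2(normalized reads + 1), no minimum mean, a minimum fold change, the ratio of the deposited means, and each library left out in turn. Spread, ratios and single genes without RSV library c were added after seeing the data.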

Additional observations from a re-analysis of the deposited data

How the results depend on the processing

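The log2FC of EPHA2, EPHA4 and EPHB3 kept its direction under every alternative run. It moved by less than the pooled log2 SD within groups, 0.091 for EPHA2, 0.23 for EPHA4 and 0.13 for EPHB3. That SD comes from all 6 libraries. It thus includes the spread due to a library left out, and cannot show that the log2FC is insensitive to that library. Leaving out 1 library at a time gave 1.68 to 1.79 for EPHA2, 0.74 to 1.03 for EPHA4 and −0.61 to −0.46 for EPHB3. The count of all mRNAs called (5004, 2472 higher and 2532 lower) ranged from 2489 to 6236, with 1168 to 3229 higher and 1321 to 3007 lower. It was 3495, 5495 and 6236 without RSV library a, b or c, and 2639, 2722 and 2489 without DMSO library a, b or c. The cause was not tested. The coefficient of variation in RSV, an alternative chosen after seeing the data, ranged from 0.840% to 4.53% for EPHA2, 6.66% to 28.2% for EPHA4 and 2.05% to 14.9% for EPHB3 with 1 RSV library left out. Depth gives a counting error of 1.59% to 4.65% for a single receptor value. Scaling by total reads moved the split to 3021 higher and 2053 lower, with the median log2FC of all mRNAs at 0.058, and left EPHA2 at 1.80, EPHA4 at 0.97 and EPHB3 at −0.50. With an absolute log2FC of at least 1, the lists kept 0 higher and 3 lower adaptors and exchange factors, 0 and 1 shedding and endocytosis genes, and 0 and 2 other guidance genes, by construction of that limit. No paired analysis was possible because the libraries, as recovered, have no replicate number. The study's own numbered values per sample were not used here. Levels per coding length were not run, since no coding length was used.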
